A study of Homo sapiens with 6 samples.

Results

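Progression of a cell from G1 into S phase is set by D-type cyclins with CDK4 and CDK6, by cyclin E with CDK2, by the INK4 and CIP/KIP inhibitors, and by the retinoblastoma protein RB on which these kinases act. The genes described here are 10 members of this circuit chosen by name: *CDKN2A*, *CDKN2B*, *CDKN1B*, *CCND1*, *CCND3*, *CCNE1*, *CDK4*, *CDK6*, *RB1*, and *MTAP*, a methionine salvage gene that neighbors *CDKN2A*. All 10 had a row among the 12499 genes of the count table, and all 10 were among the 12462 genes that passed the filter on low counts. INK4 proteins bind CDK4 and CDK6 and keep D-type cyclins off them, whereas CIP/KIP proteins bind the assembled cyclin-CDK complexes. Phosphorylation of RB by these kinases releases E2F factors, which drive genes of DNA synthesis. In keratinocytes, exit from this cycle accompanies terminal differentiation, and *CDKN2A* and *CDKN2B* are known as senescence-associated brakes.

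RNA was sequenced from HaCaT cells, an immortalized human keratinocyte line, infected with a lentivirus expressing *ATF7* (LV-*ATF7*) or with a negative control lentivirus (LV-NC) for 48 hours, and then kept in high glucose for 24 hours. Each group had 3 libraries, and total counts ranged from 16686472 to 20562768 per library. Both groups received virus and high glucose, so no comparison with normal glucose or with uninfected cells was possible in these libraries. The labels do not say that the libraries came from separate cultures, so the p-values measure the spread between these libraries, which may be technical.

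Levels are TMM-scaled counts relative to library size (CPM), and a fold change is that of libraries labeled LV-*ATF7* over those labeled LV-NC. Adjusted p-values come from the quasi-likelihood test of edgeR, corrected by Benjamini-Hochberg over all genes tested. *ATF7* itself went against the labels: its level was 50.6, 46.4 and 52.2 CPM where the label was LV-NC and 21.9, 25.7 and 27.98 CPM where it was LV-*ATF7* (log2 fold change -0.98, SE 0.12, edgeR adjusted p = 0.00019). Every direction given here is therefore by label. Of the *ATF7* exon bases, 18.2% are shared with a same-strand gene and 27.1% lie opposite other genes. LV-NC replicate 1 also stood apart. Its log2 levels correlated across genes at r = 0.967 and 0.969 with the other LV-NC libraries, which correlated with each other at 0.995 (its values are given apart for each of the 10 genes). As a check of the cell type, 13 of 14 keratinocyte markers had a row, with *KRT1* the exception. Of these, 8 were called higher and 4 lower (edgeR adjusted p under 0.05), a share of 92.3% against 67.6% of all genes tested. Their summed level was 2693 to 3408 CPM in LV-NC and 7790 to 8297 CPM in libraries labeled LV-*ATF7*, carried mainly by *KRT5* (means of 266.4 and 3354 CPM) and *ITGB4* (287.0 and 1112 CPM). *KRT14*, *IVL*, *KRT10* and *DSC3* were the 4 called lower, and basal keratin *KRT14* was low in all libraries, at 0.37 to 12.5 CPM. Of the markers of other cell types, 3 of 8 for fibroblasts, 3 of 8 for macrophages, 2 of 5 for melanocytes and 2 of 5 for endothelial cells had a row, and *PTPRC*, *COL1A2*, *TYR* and *PECAM1* had none. The summed level of the endothelial pair, *VWF* and *CDH5*, was 1.12 to 5.50 CPM in LV-NC and 84.6 to 89.9 CPM in the other group. The other lists stayed low, but their sums did not overlap between groups. For fibroblasts (2 genes tested) the sum was 33.1 to 42.7 CPM in LV-NC and 17.3 to 21.7 CPM in the other group. The macrophage sum was 5.57 to 8.125 CPM in LV-NC and 9.38 to 12.7 CPM in the other group. The melanocyte sum was 17.5 to 24.8 CPM in LV-NC and 12.2 to 13.0 CPM in the other group. The part of these markers in the results was not tested.

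The promoter sequences of the chromosome 9p genes are shown because *CDKN2A*, *CDKN2B* and *MTAP* lie side by side yet differed in the size of their fold change. In GENCODE release 29 (GRCh38), *MTAP* spans chr9:21802543-21937651 on the plus strand, *CDKN2A* spans chr9:21967753-21995301 on the minus strand, and *CDKN2B* spans chr9:22002903-22009363 on the minus strand. The bases below are from RefSeq (GRCh38.p14), 5′ to 3′ on the strand of the gene. For *CDKN2A*, *CDKN2B*, *MTAP* and *CCNE1* they are limited to the part upstream of annotated exons. Capitals mark GC boxes (GGGCGG on either strand), the usual Sp1 site.
CDKN2A, distal promoter, chr9:21995325-21995481, minus strand: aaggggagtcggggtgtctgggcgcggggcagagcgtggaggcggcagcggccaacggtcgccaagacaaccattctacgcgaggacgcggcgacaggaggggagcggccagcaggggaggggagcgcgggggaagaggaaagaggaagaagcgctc
CDKN2B, chr9:22009364-22009555, minus strand: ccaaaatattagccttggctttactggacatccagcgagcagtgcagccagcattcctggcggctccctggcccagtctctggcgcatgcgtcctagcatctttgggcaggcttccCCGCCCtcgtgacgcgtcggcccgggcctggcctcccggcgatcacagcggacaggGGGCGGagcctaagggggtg
MTAP, chr9:21802386-21802542, plus strand: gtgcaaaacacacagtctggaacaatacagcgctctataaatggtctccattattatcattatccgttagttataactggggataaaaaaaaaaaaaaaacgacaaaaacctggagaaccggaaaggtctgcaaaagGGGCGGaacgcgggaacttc

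*CDKN2A* has a pair of promoters in the RefSeq table, the distal one for p14ARF and the proximal one for p16INK4a, and counts per gene do not separate the transcripts. The distal promoter held no GC box, whereas the proximal one, almost all of it exonic in the annotation and not printed, held 2. In windows of 300 bases (250 before to 50 after the start), both strands were searched for the cAMP response element TGACGTCA, the palindrome that ATF-family factors are known to bind, for the E2F words TTTCGCGC, TTTGGCGC, TTTCCCGC and TTTGCCGC, for the AP-1 word TGACTCA, for the E box CACGTG and for the GC box. Of all 35116 promoters, 1.85% held the response element, 3.31% an E2F word, 4.95% the AP-1 word, 7.26% an E box and 45.0% a GC box. None of the listed promoters of the genes described here held the response element, an E2F word or the AP-1 word, which says only that these letters are not in these windows. *CCND1* had no entry, and the *RB1* entry lies inside the gene. The windows of *CDK4*, *CDKN1B* and *CCND3* also lie within the GENCODE spans of their genes. The same holds for the proximal *CDKN2A* window and for the *CDK6* window without an E box. An E box was present 3 times before the listed start of *CDK4* and once in a *CDK6* promoter. The *CCNE1* promoter held 7 GC boxes, of which 5 lie in the printed stretch. For *MTAP*, 1 of 2 GC boxes lies in the printed stretch, and for *CDKN2B*, 2 of 2. The pair of *CDK4* E boxes farthest from the start is shown in capitals, in a stretch that reaches into annotated exons, and the *CCNE1* window is shown for its GC boxes.
CDK4, chr12:57752499-57752528, minus strand: gtCACGTGtgatagcaacagatCACGTGgc
CCNE1, chr19:29811741-29811897, plus strand: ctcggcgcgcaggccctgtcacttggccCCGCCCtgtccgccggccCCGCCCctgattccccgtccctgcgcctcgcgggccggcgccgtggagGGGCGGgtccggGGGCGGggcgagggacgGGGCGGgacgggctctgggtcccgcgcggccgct

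Of the 10 genes, 7 passed an edgeR adjusted p under 0.05, where 67.6% of all genes tested did so, and the share among the 10 was therefore near the background. Of these, *CDKN2A*, *CCND1*, *CDK4* and *MTAP* were higher in libraries labeled LV-*ATF7*, a direction called for 34.7% of all genes. The other 3, *CCND3*, *CDKN1B* and *CCNE1*, were lower, as 32.9% of all genes were. In the same 7 genes the CPM of the 2 groups did not overlap, against 72.7% of all genes. Without LV-NC replicate 1, all 10 passed, against 80.1% of all genes.

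**Figure D1:**
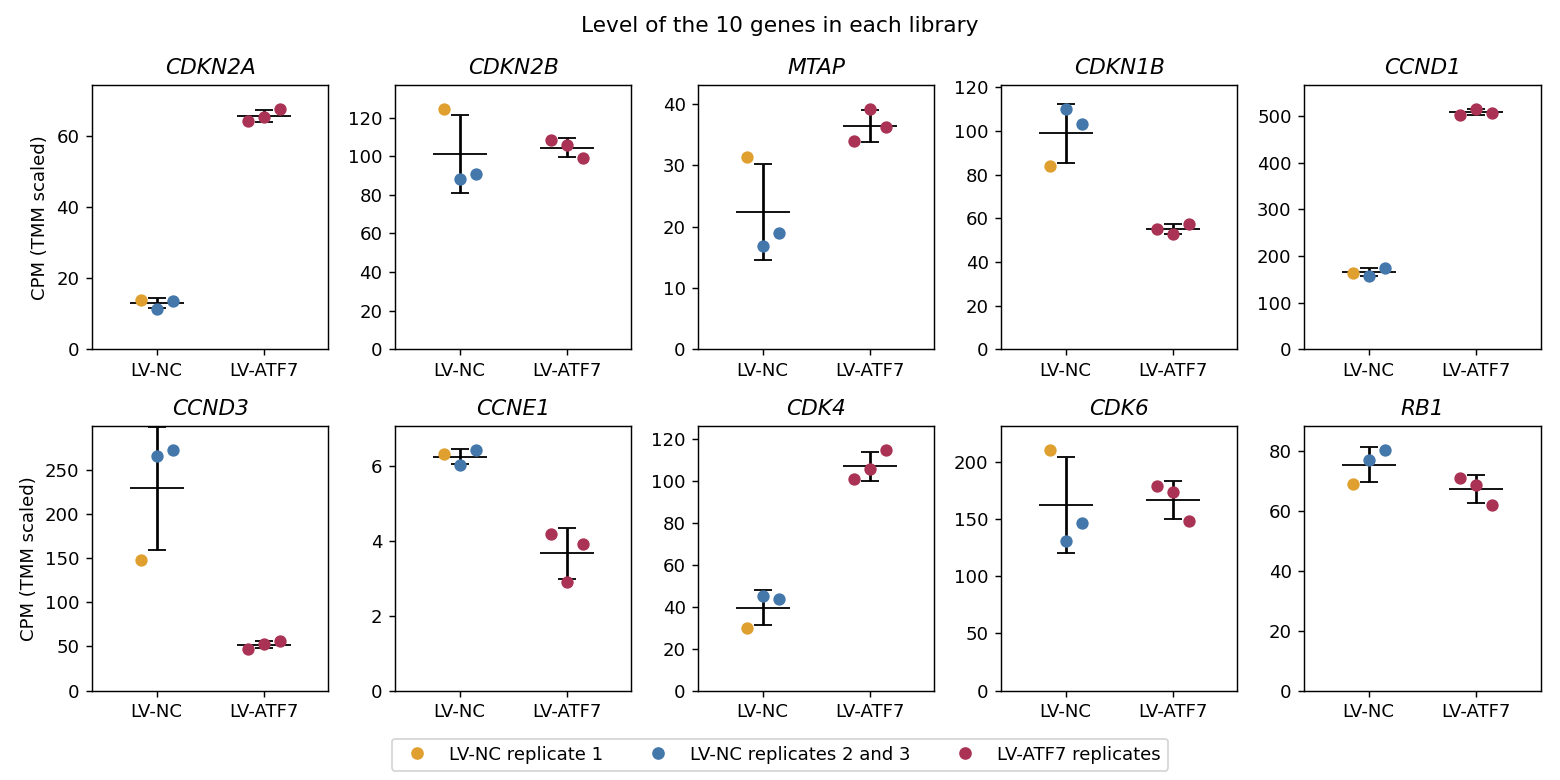
Level of each gene (CPM after TMM scaling, linear axis from 0) in the 3 LV-NC and 3 LV-*ATF7* libraries, one point per library with LV-NC replicate 1 in yellow, and the group mean and SD in black. *CDKN2A*, *CCND1*, *CDK4* and *MTAP* were higher and *CCND3*, *CDKN1B* and *CCNE1* lower in every library labeled LV-*ATF7*, whereas *CDKN2B*, *CDK6* and *RB1* overlapped.

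The INK4 gene *CDKN2A* had the log2 fold change largest in size of the 10 genes with all 6 libraries. Without LV-NC replicate 1 (-2.39 against 2.38) and under library size scaling (-2.29 against 2.17) that of *CCND3* was larger in size. *CDKN2A* was at 14.03, 11.5 and 13.5 CPM in LV-NC replicates 1, 2 and 3 and at 64.4, 65.3 and 67.6 CPM in libraries labeled LV-*ATF7*. The groups were far apart and LV-NC replicate 1 was among its group. In RNA of whole cultures, more cells with a transcript and more transcript per cell cannot be told apart. The fold change was 5.06 (log2 2.34, SE 0.11, edgeR adjusted p = 2.33e-06), and log2 2.38 without LV-NC replicate 1. Of its exon bases, 7.88% lie opposite *CDKN2B-AS1*, which had no row.

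*CDKN2B*, which encodes p15INK4b and is induced by TGF-beta, was not called. Its levels were 124.4, 88.1 and 90.7 CPM in LV-NC and 108.5, 105.7 and 98.9 CPM in libraries labeled LV-*ATF7*. LV-NC replicate 1 was above all others and the remaining LV-NC libraries below all others, so the groups overlapped (log2 fold change 0.05, SE 0.14, edgeR adjusted p = 0.79). Without LV-NC replicate 1 the log2 fold change was 0.20 (SE 0.08, edgeR adjusted p = 0.021).

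*MTAP*, the methylthioadenosine phosphorylase gene, was at 31.4, 16.9 and 18.9 CPM in LV-NC and at 33.99, 39.2 and 36.2 CPM in libraries labeled LV-*ATF7*. The first LV-NC library was close to the other group without overlapping it. The log2 fold change was 0.70 (SE 0.22, edgeR adjusted p = 0.023). This call depended on single libraries: it was 1.01 (adjusted p = 5.15e-09) without LV-NC replicate 1, but 0.50 (adjusted p = 0.090) without LV-NC replicate 2 and 0.55 (adjusted p = 0.0996) without LV-NC replicate 3, all by edgeR. Leaving out LV-*ATF7* replicate 2 or 3 also lost it (edgeR adjusted p = 0.074 and 0.071). Of its exon bases, 7.83% are shared with same-strand genes.

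Other genes of the region moved in both directions. Of 16 neighbors listed, 8 had a row, of which 1 was higher, 4 were lower and 3 were not called (median log2 fold change -0.36, all genes 0.00016). The genes with a row start from chr9:20341665 (*MLLT3*) to chr9:26947039 (*IFT74*), and the nearest is *KLHL9*, at chr9:21329671-21335380. The listed genes closer than that, *CDKN2B-AS1*, *DMRTA1*, *MIR31HG* and *IFNE*, had no row, so the immediate surroundings were not measured. *ELAVL2*, a neuronal RNA-binding protein gene, fell by 1.08 on the log2 scale, *PLAA*, a ubiquitin-binding protein gene, fell by 0.92 and *FOCAD*, which encodes a focal adhesion protein, fell by 0.61. *KLHL9*, an adaptor of a CUL3 ubiquitin ligase, was the one called higher, by 0.40. None of these 8 genes rose by as much as *CDKN2A* or *MTAP*.

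The CIP/KIP inhibitor *CDKN1B*, which encodes p27KIP1, was at 83.8, 110.0 and 102.9 CPM in LV-NC and at 55.0, 53.01 and 57.5 CPM in libraries labeled LV-*ATF7*. Every LV-NC library lay above every library of the other group. The log2 fold change was -0.84 (SE 0.12, edgeR adjusted p = 0.0004).

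The D-type cyclins moved in opposite directions. *CCND1*, which encodes cyclin D1, was at 163.9, 157.2 and 174.2 CPM in LV-NC and at 502.4, 515.4 and 507.6 CPM in libraries labeled LV-*ATF7*. Libraries within a group were close and LV-NC replicate 1 lay between its group mates (fold 3.08, log2 1.62, SE 0.09, edgeR adjusted p = 4.02e-06). Of its exon bases, 10.3% lie opposite *LTO1*, whose log2 fold change was -0.12 (edgeR adjusted p = 0.28).

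*CCND3*, which encodes cyclin D3, was at 148.4, 266.1 and 272.1 CPM in LV-NC and at 47.7, 52.9 and 55.9 CPM in libraries labeled LV-*ATF7*. LV-NC replicate 1 was well below its group mates but above the other group. The log2 fold change was -2.13 (SE 0.23, edgeR adjusted p = 8.79e-05), and -2.39 (SE 0.08) without LV-NC replicate 1.

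Of the partner kinases, *CDK4* was at 29.8, 45.1 and 43.6 CPM in LV-NC and at 100.9, 105.6 and 114.6 CPM in libraries labeled LV-*ATF7*. The lowest library was LV-NC replicate 1. The fold change was 2.71 (log2 1.44, SE 0.16, edgeR adjusted p = 0.00012), and log2 1.25 without LV-NC replicate 1. Of its exon bases, 43.2% lie opposite *TSPAN31*, and the strand setting of the counting is not given in the sources used here, so reads of the 2 genes may have been mixed. *TSPAN31* itself was at 31.0 to 45.9 CPM in LV-NC and at 39.0 to 44.4 CPM in the other group (log2 0.20, edgeR adjusted p = 0.31).

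*CDK6* was not called. It was at 209.9, 130.9 and 146.1 CPM in LV-NC and at 178.5, 173.2 and 148.0 CPM in libraries labeled LV-*ATF7*, with LV-NC replicate 1 above all others (log2 fold change 0.04, SE 0.18, edgeR adjusted p = 0.86). Without LV-NC replicate 1 the log2 fold change was 0.25 (SE 0.08, edgeR adjusted p = 0.010).

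*CCNE1*, which encodes the CDK2 partner cyclin E1, was the least abundant of the 10 genes in counts. Its counts were 118, 115 and 111 in LV-NC and 75, 57 and 71 in libraries labeled LV-*ATF7*, or 6.32, 6.03 and 6.43 CPM against 4.19, 2.91 and 3.93 CPM. The groups did not overlap (log2 fold change -0.77, SE 0.19, edgeR adjusted p = 0.0072).

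*RB1* was at 69.2, 77.1 and 80.4 CPM in LV-NC and at 71.2, 68.9 and 62.1 CPM in libraries labeled LV-*ATF7*. The groups overlapped through LV-NC replicate 1 (log2 fold change -0.16, SE 0.10, edgeR adjusted p = 0.18). Without that library the log2 fold change was -0.24 (SE 0.08, edgeR adjusted p = 0.011). The 3 genes not called with all libraries, *CDKN2B*, *CDK6* and *RB1*, were also those with the smallest fold changes without LV-NC replicate 1.

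**Figure D2:**
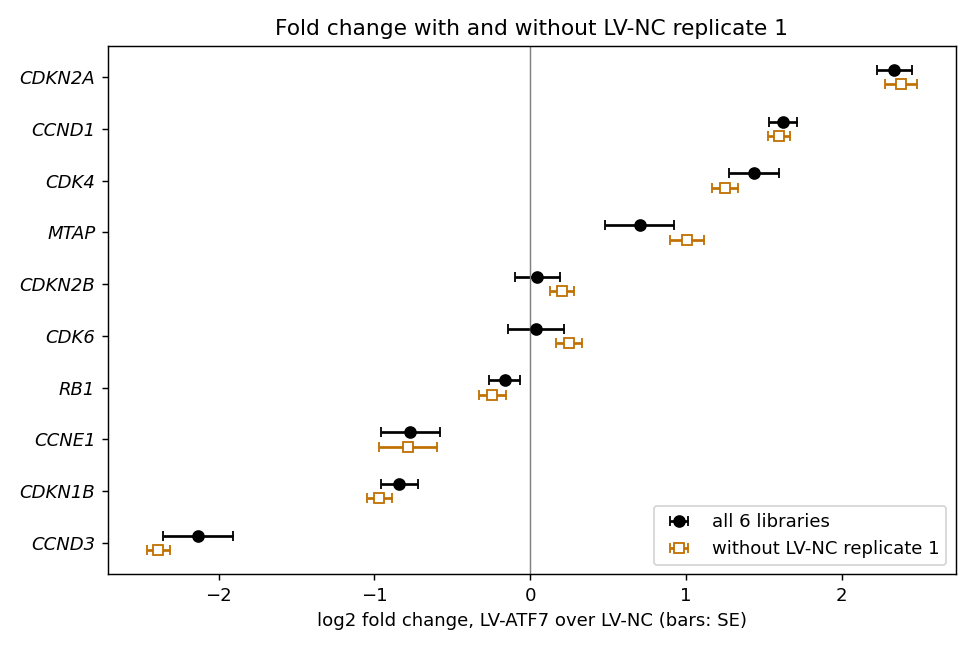
Log2 fold change of each gene, LV-*ATF7* over LV-NC, with its SE, from all 6 libraries (filled circles) and without LV-NC replicate 1 (open squares). *CDKN2A* was at 2.34 and 2.38 and *CCND3* at -2.13 and -2.39, whereas *MTAP* moved from 0.70 to 1.01.

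LV-NC replicate 1 differed from the mean of LV-NC replicates 2 and 3 by at least 0.5 on the log2 scale in 4 of the 10 genes, against 30.3% of all genes. It was higher for *MTAP* (0.81) and *CDK6* (0.60) and lower for *CCND3* (-0.86) and *CDK4* (-0.57). The same library was low in genes of G2 and mitosis, by a median of -2.51 on the log2 scale over the 12 genes of that list. The summed level of those 12 genes was 533.3 CPM in LV-NC replicate 1, 2948 and 2976 CPM in LV-NC replicates 2 and 3, and 823.3 to 860.6 CPM in libraries labeled LV-*ATF7*. *MKI67*, the gene of the Ki67 antigen, was at 133.8 CPM there and at 721.4 and 811.6 CPM in LV-NC replicates 2 and 3. The part of this shift in the values of the 10 genes was not tested.

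Ratios of paired genes within a library do not depend on how libraries are scaled. They were taken on counts per kilobase of merged exon, with 0.5 added to each count, and 4 ratios were compared with an exact two-sided permutation test, whose smallest possible p with 3 against 3 libraries is 0.10. All 4 reached that p, which is also 0.10 after adjustment over the 4, and none overlapped between groups. The *CCND1* to *CCND3* ratio was 1.33, 0.710 and 0.769 in LV-NC and 12.7, 11.7 and 10.9 in libraries labeled LV-*ATF7*, a log2 difference of 3.71. The level of a ratio depends on the gene lengths, and its difference between groups does not. With the lengths implied by the deposited FPKM values the LV-NC ratios of *CCND1* to *CCND3* were 3.78, 2.02 and 2.19. The *CDKN2A* to *CDKN2B* ratio was 0.106, 0.122 and 0.140 in LV-NC and 0.556, 0.579 and 0.641 in the other group, a log2 difference of 2.28. *CDKN2B* remained the more abundant per kilobase in all 6 libraries.

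The *CDK6* to *CDK4* ratio was 1.82, 0.750 and 0.865 in LV-NC and 0.457, 0.424 and 0.334 in libraries labeled LV-*ATF7*, a log2 difference of -1.40. It was -1.004 without LV-NC replicate 1, whose ratio was the highest. With FPKM-implied lengths the LV-NC ratios were 3.59, 1.48 and 1.71. The *MTAP* to *CDKN2A* ratio was 0.662, 0.437 and 0.415 in LV-NC and 0.157, 0.178 and 0.159 in the other group, a log2 difference of -1.59.

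**Figure D3:**
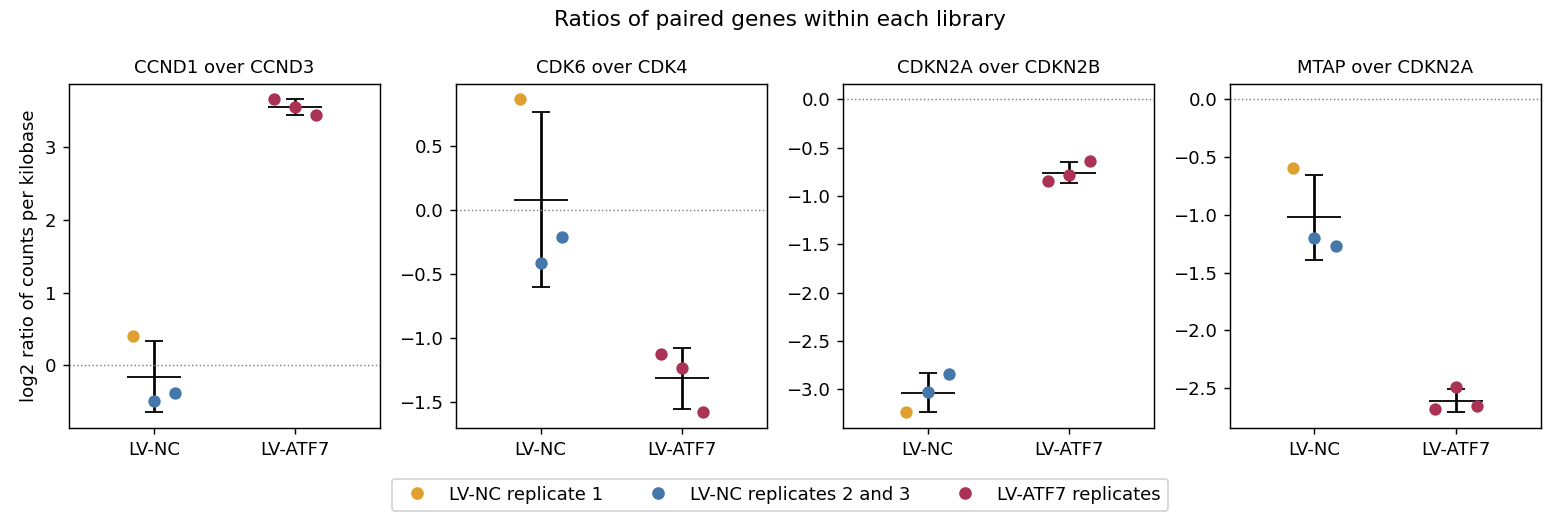
Log2 ratio of counts per kilobase of paired genes in each library, with the mean and SD of each group, and 0 marking equal levels. The *CCND1* to *CCND3* difference between groups was 3.71 on the log2 scale, and LV-NC replicate 1 (yellow) lay nearest libraries labeled LV-*ATF7* for that ratio.

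Levels of different genes were compared per kilobase of merged exon. In LV-NC, *CCND3* was at 39.4 ± 12.02, *CDKN1B* at 35.2 ± 4.82 and *CCND1* at 34.2 ± 1.77 CPM per kilobase (SD, n = 3), and these 3 neighbors in the order did not differ beyond their spread over the 3 libraries. For *CCND3* and *CDKN1B* that spread came mainly from LV-NC replicate 1, where they were at 25.6 and 29.8. *CCND1* was at 33.9 there, between its values in LV-NC replicates 2 and 3. In LV-NC replicates 2 and 3 the genes did not overlap, with *CCND3* at 45.9 and 46.9, *CDKN1B* at 39.1 and 36.6 and *CCND1* at 32.5 and 36.1. *CDKN1B* and *CCND1* were close in LV-NC replicate 3. *CDKN2B* followed at 24.9 ± 4.99. *CDK6* at 13.2 ± 3.42, *CDK4* at 12.5 ± 2.66 and *RB1* at 11.7 ± 0.895 again lay within their spread, with *CDK6* at 17.1 and *CDK4* at 9.41 in LV-NC replicate 1, and *CDK6* at 10.7 and 11.9 and *CDK4* at 14.2 and 13.8 in its group mates. *CDKN2A* at 3.003 ± 0.310, *CCNE1* at 2.45 ± 0.0805 and *MTAP* at 1.53 ± 0.535 were lowest. In libraries labeled LV-*ATF7*, *CCND1* led at 105.3 ± 1.36 CPM per kilobase and was followed by *CDK4* at 33.8 ± 2.20 and *CDKN2B* at 25.7 ± 1.22. *CCND3* was eighth of the 10 there, at 8.98 ± 0.714. With the longer gene lengths implied by the deposited FPKM values, *CCND1* (22.96) and *CDKN2B* (14.4) stood above *CCND3* (9.30) in LV-NC, so the order between genes depends on the length used.

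Families were also summed per kilobase, a description chosen after the values were seen. Cyclin D1 transcript made up 42.7%, 36.8% and 38.7% of the D-type cyclin sum (*CCND1*, *CCND2* and *CCND3*) in LV-NC and 81.0%, 79.5% and 79.6% in libraries labeled LV-*ATF7*. With FPKM-implied lengths this share was 62.9% to 69.1% in LV-NC and 92.3% to 92.9% in the other group, so which cyclin led in LV-NC depends on the length. The sum itself was 79.6, 88.4 and 93.3 CPM per kilobase in LV-NC and 131.6 ± 2.94 in the other group. *CDKN2A* made up 5.41%, 3.85% and 4.54% of the INK4 sum (*CDKN2A* to *CDKN2D*) in LV-NC and 32.7%, 33.4% and 34.6% in the other group. The INK4 sum was lower there in spite of *CDKN2A*, at 45.3 ± 0.151 CPM per kilobase against 59.9, 69.0 and 68.6 in LV-NC. *CDKN2D* made up 39.3%, 57.7% and 55.4% of it in LV-NC and 6.87%, 7.13% and 9.61% in libraries labeled LV-*ATF7*.

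The sum of *CDKN1A* and *CDKN1B* was 311.3 ± 0.877 CPM per kilobase in LV-NC and 73.1 ± 5.77 in the other group, and that of *CDK4* and *CDK6* was 25.7 ± 0.813 and 47.4 ± 0.925. For *CDK4* and *CDK6* the 3 LV-NC sums were close although LV-NC replicate 1 was low in one gene and high in the other. *RB1* made up 60.2% ± 2.17 of the pocket protein sum (*RB1*, *RBL1* and *RBL2*) in LV-NC and 41.3% ± 0.229 in libraries labeled LV-*ATF7*, where *RBL2* made up 43.5% ± 0.422. With FPKM-implied lengths *RB1* was at 43.2% to 43.6% and *RBL2* at 35.2% to 35.9% in libraries labeled LV-*ATF7*. Which of them led there thus depends on the length.

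**Figure D4:**
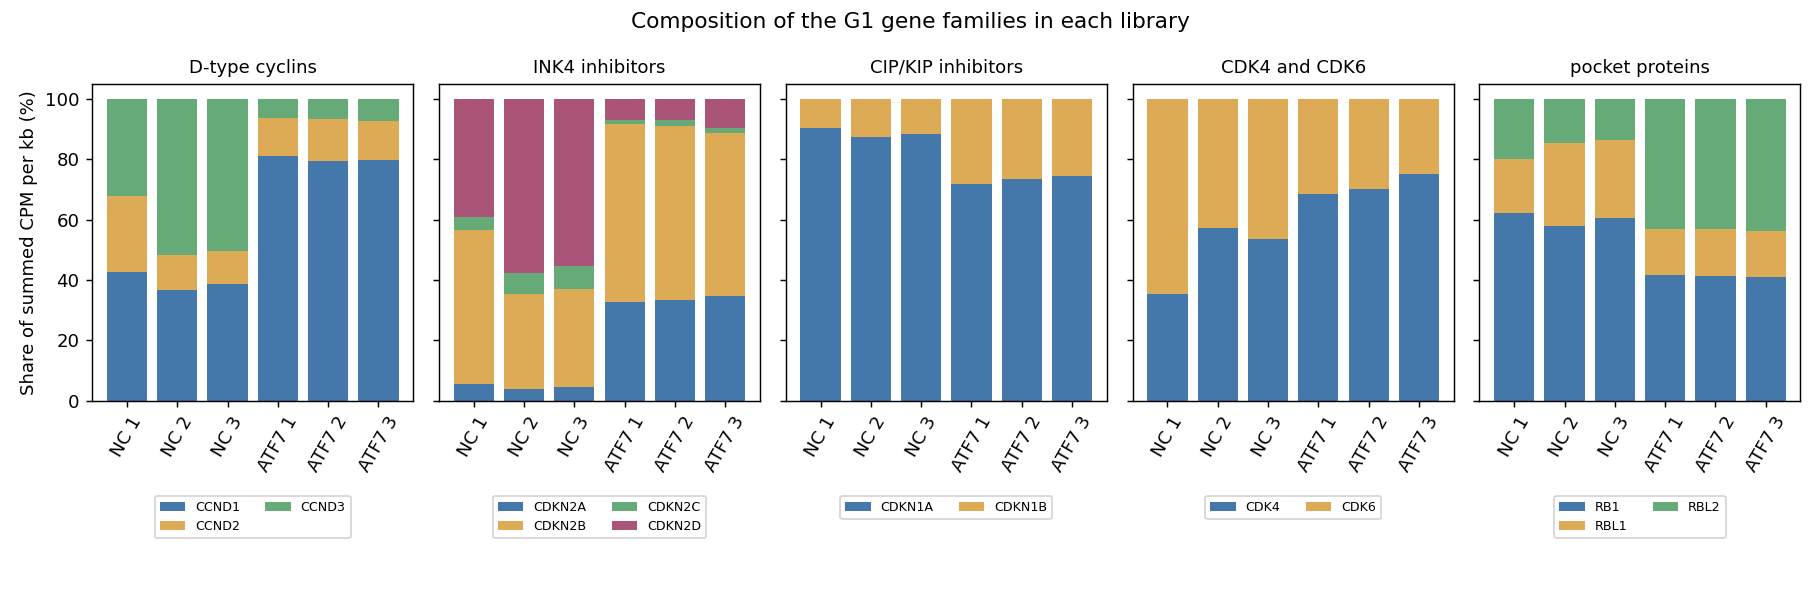
Share of each gene in the summed CPM per kilobase of its family (percent), one stacked bar per library, for D-type cyclins, INK4 inhibitors, *CDKN1A* with *CDKN1B*, *CDK4* with *CDK6*, and pocket proteins. *CCND1* was at 36.8% to 42.7% of the D-type cyclins in LV-NC and at 79.5% to 81.0% in libraries labeled LV-*ATF7*.

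Of 8 other G1 cyclins, CDKs and inhibitors, 6 had a row, of which 4 were lower, none higher and 2 not called (66.7% called, near the background, and a median log2 fold change of -2.01). Without LV-NC replicate 1, *CCND2*, which encodes cyclin D2, was called higher (0.75, edgeR adjusted p = 5.58e-09). *CDKN1A*, which encodes the p53-induced inhibitor p21, was at 842.2 ± 17.1 CPM in LV-NC and 163.1 ± 15.7 CPM in the other group (log2 -2.37). *CDKN2D*, which encodes p19INK4d, was at 35.3, 59.8 and 57.1 CPM in LV-NC and 5.35 ± 1.02 CPM in the other group (log2 -3.24), and *CDKN2C*, which encodes p18INK4c, was at 8.25, 16.04 and 17.02 CPM and 2.64 ± 0.217 CPM (log2 -2.38). *CDKN2A* was thus the one INK4 gene of 4 that was called higher with all libraries.

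Of 12 pocket protein, E2F and DP genes, 6 were higher, 2 lower and 4 not called (median 0.38, and 0.18 without LV-NC replicate 1). *E2F5*, a repressor E2F, rose by 1.96 on the log2 scale, *RBL2*, which encodes the pocket protein p130, rose by 1.83, and *E2F7*, an atypical repressor E2F, fell by 1.70. Among 20 E2F targets of DNA synthesis, 7 were higher, 6 lower and 7 not called (median -0.14). *MCM3*, a subunit of the replicative helicase, rose by 1.92 on the log2 scale, and *UHRF1*, a maintenance methylation factor, by 1.63. LV-NC replicate 1 was below its group mates by a median of -1.36 over this list, and without it 8 were higher and 10 lower (median -0.37).

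Of 12 genes of G2 and mitosis, none was higher, 5 were lower and 7 were not called (median -1.35). *BUB1*, a spindle checkpoint kinase gene, was at 22.4, 117.3 and 110.3 CPM in LV-NC and at 21.1, 20.2 and 21.1 CPM in the other group (log2 -2.002, edgeR adjusted p = 0.0094). For *BUB1* the level of LV-NC replicate 1 was thus near that of libraries labeled LV-*ATF7*. *BUB1* was the 1 gene of the 12 whose groups did not overlap (8.33%, against 72.7% of all genes). Summed over the 12, LV-NC replicate 1 lay below every library labeled LV-*ATF7* (533.3 against 823.3 to 860.6 CPM). Without LV-NC replicate 1 all 12 were lower (median -1.85), and without any one of the other 5 libraries 1 was called.

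Kinases and phosphatases that switch CDKs on or off gave 1 higher, 4 lower and 3 not called of 8 (median -0.42). The mitotic phosphatase gene *CDC25B* rose by 1.79 on the log2 scale, *CDC25C* fell by 2.25 and *CDK7*, the kinase of the CDK-activating complex, fell by 0.80. LV-NC replicate 1 was below its group mates by a median of -0.86 over this list. For *CDC25B* it was at 53.8 CPM against 180.8 and 177.5, and for *CDC25C* at 7.44 CPM against 39.6 and 36.1. Without it their log2 fold changes were 1.39 and -2.72, and that of *CDK7* was -0.81. Of 18 genes of cyclin and p27 turnover, 4 were higher, 8 lower and 6 not called (median -0.28). *FBXO4*, an F-box protein gene linked to cyclin D1 turnover, rose by 1.44, *CUL4A*, a cullin scaffold gene, rose by 1.14, and its paralog *CUL4B* fell by 0.91.

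Regulators of *CDKN2A* and *CDKN2B* split evenly, with 8 of 22 higher, 8 lower and 6 not called (median -0.09). *TBX3*, which encodes a T-box repressor of *CDKN2A*, fell by 2.19 on the log2 scale. *ETS2*, an activator of p16INK4a, rose by 1.36 and *ID1*, an inhibitor of such activators, rose by 1.33. Of 13 measured transcription factors that act on *CCND1*, 4 were higher, 5 lower and 4 not called (median -0.08, and 0.07 without LV-NC replicate 1). *MYC* rose by 2.22, *FOSL2* by 0.999, and *FOSL1*, another AP-1 subunit, fell by 1.95.

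Of 15 genes of methionine salvage and its partners, 7 were higher, 2 lower and 6 not called (median 0.19, and -0.02 without LV-NC replicate 1). *SAT1*, the polyamine acetyltransferase gene, rose by 1.65 on the log2 scale, *MAT2A*, which makes S-adenosylmethionine, rose by 0.98, and *ODC1*, which starts polyamine synthesis, fell by 1.39. Of 21 genes of the p53 axis, 7 were higher, 9 lower and 5 not called (median -0.08). *RRM2B*, a ribonucleotide reductase subunit gene, fell by 2.40 with *CDKN1A*, and *GDF15*, a stress cytokine gene, rose by 1.98. Of 14 chromatin partners of RB, 5 were higher, 4 lower and 5 not called (median 0.18, and -0.04 without LV-NC replicate 1). *CTBP2*, a corepressor gene, rose by 1.62, and *RBBP4*, a histone-binding subunit gene, by 1.56. In all of these lists but that of G2 and mitosis (41.7%), the share called was at most 76.2% and not far from the 67.6% of all genes.

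**Figure D5:**
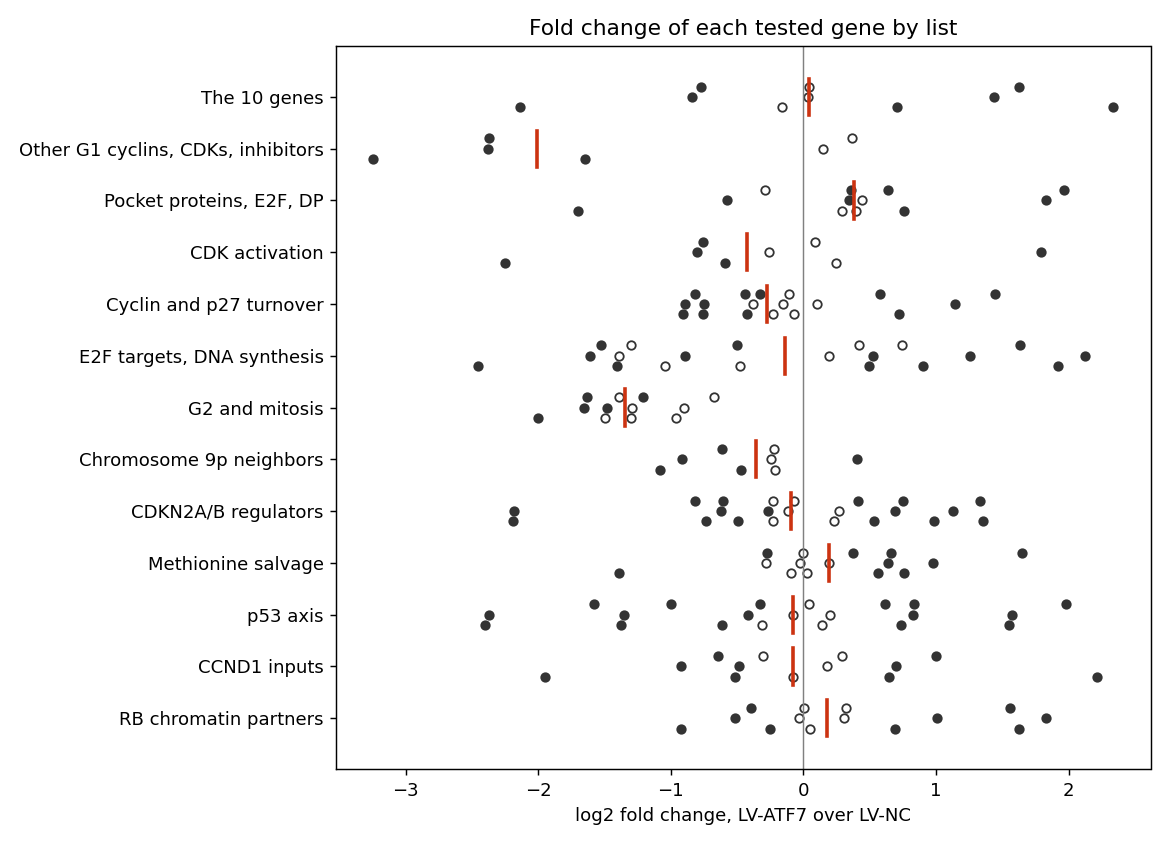
Log2 fold change, LV-*ATF7* over LV-NC, of every tested gene in each list (filled, edgeR adjusted p under 0.05; open, not called), with the list median as a red bar. The G2 and mitosis genes all lie below 0, with a median of -1.35, and most other lists spread to both sides.

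The genes with profiles most like *CDKN2A* over the 6 libraries, by Euclidean distance between centered log2 CPM, were *ZDHHC8* (0.138), *SORBS3* (0.157) and *EPHB4* (0.168). For *CCND3*, the gene in which LV-NC replicate 1 was farthest from its group mates, they were *LRWD1* (0.158), *KIF5C* (0.165) and *NEU1* (0.169). *LRWD1* was at 162.3, 286.7 and 273.5 CPM in LV-NC and at 54.5, 56.5 and 64.1 CPM in the other group. Its low level in LV-NC replicate 1 follows from its choice as the profile nearest *CCND3*.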

How the data were processed

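Poly(A) RNA of 6 HaCaT libraries was sequenced and quality filtered by the authors, who deposited raw counts per gene. GRCh38 is named in the submitters' processing notes, and the aligner, counter and strand setting are not given in the sources used here. The authors also deposited FPKM values, used only for gene length: divided by the summed exons of all GENCODE 29 transcripts, the implied length had a median of 1.0, and divided by merged exons, 2.61. The deposited fold changes and p-values of the authors' own comparison were not used.

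Samples were grouped by label. Counts of 12462 genes that passed filterByExpr (37 did not) were TMM scaled and tested with edgeR 4.0.16 in R 4.3.3 (glmQLFit, glmQLFTest; Benjamini-Hochberg, threshold 0.05). The SE was the log2 fold change over the root of F. Total counts of 16686472 to 20562768 leave little counting error except for low genes such as *CCNE1*. The procedure was tested on simulated data in which far fewer genes were changed than were called here. A shift as broad as that of these data was thus not tested. Alternatives were DESeq2 1.42.0, limma 3.58.1 voom weights, other scalings and filters, a replicate block and leaving out each library. The genes and lists were chosen with earlier results of these data known. Beside the 10 genes, the text names *ATF7*, in each list up to 3 called genes with the largest change, 50 or more counts on average and groups that did not overlap, and the 3 nearest profiles (prior count 2) of 2 genes. *KLHL9*, *MKI67*, *CCND2*, the keratinocyte markers, *VWF*, *CDH5*, *TSPAN31* and *LTO1* were named after their values were seen. One more gene that meets the rule for named genes is not reported here.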

Additional observations from a re-analysis of the deposited data

How the results depend on the processing

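*CDKN2A*, *CCND1*, *CDK4*, *CCND3*, *CDKN1B*, *CCNE1* and *ATF7* kept their direction and their call under all 14 alternatives. *MTAP* lost its call in 5 of 14, among them library size scaling alone (log2 0.53, adjusted p = 0.087). *CDKN2B* was -0.12 under library size scaling, -0.082 without LV-NC replicate 2 and -0.07 without LV-NC replicate 3. *CDK6* was -0.13 under library size scaling and without LV-NC replicate 2, -0.08 without LV-NC replicate 3 and -0.01 without LV-*ATF7* replicate 1. Both were called higher without LV-NC replicate 1 (0.20 and 0.25) and with voom quality weights (0.23 and 0.29). *RB1* was called lower in 3 of 14, from -0.19 to -0.33. Library size scaling moved the median of all genes to -0.16 and the share of higher calls from 51.3% to 42.4%.

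The number of genes called in the G2 and mitosis list was 5, against 9 under library size scaling, 12 with voom weights and 1 with the replicate block, and from 1 to 12 when single libraries were left out. Leaving out single libraries gave 8 to 18 calls in the E2F target list, with 8 without LV-*ATF7* replicate 3. The cause was not tested. Same-numbered libraries did not deviate together (correlations 0.058, -0.021 and 0.065). The deviations in LV-NC were dominated by LV-NC replicate 1, so these correlations cannot decide whether the numbers pair the libraries. With the replicate block 8210 genes were called and 7 of the 10 genes. Lengths implied by FPKM changed levels, ratios and family shares between genes, but turned no difference of a family sum around. For sums, shares and ratios this alternative was added after seeing the data.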
